A study of Mus musculus with 3 samples.

Results

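Genes of endoplasmic reticulum (ER) protein quality control were examined for binding of the transcription factors ATF4 and CEBPG: Hspa5, Hsp90b1, Sel1l, Herpud1, Xbp1, Dnajb9, Hyou1, Pdia4, Manf and Edem1. They were chosen by name, 10 of 21887 protein-coding genes on the nuclear chromosomes. A peak was assigned to a gene when it overlapped the gene's RefSeq span in mm10 or the 20 kb on either side. By that rule 5 of 2642 ATF4 peaks and 14 of 25419 CEBPG peaks belonged to these genes. The cells were wild-type C57BL/6 mouse embryonic fibroblasts, primary connective-tissue cells isolated from E13.5 embryos and used after a few passages. They were plated for 24 hours, deprived of amino acids (AAD medium) for 3 hours, fixed with formaldehyde and processed for chromatin immunoprecipitation with sequencing (ChIP-seq). Of the 3 libraries, 1 was made with a commercial ATF4 antibody, 1 with an antiserum against the C-terminus of CEBPG and 1 with a GFP antibody, which was not analysed here. All libraries came from deprived cells, so the peaks show where the factors were found in that state and not whether binding changed with deprivation. With 1 library per antibody, no value below has a replicate error or a test. Peak positions do not measure expression, so the labelled cell type could not be checked against marker genes.

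Proteins that enter the ER are folded there by chaperones and by enzymes that form disulfide bonds, and those that fail are returned to the cytosol and degraded, a route called ER-associated degradation (ERAD). When misfolded proteins build up, the sensors IRE1, PERK and ATF6 start the unfolded protein response, which raises the output of chaperone and ERAD genes through the transcription factors XBP1, ATF6 and ATF4. ATF4 is also made when amino acids are short, through a different kinase that acts on the same initiation factor as PERK. It binds DNA as a dimer with other basic leucine zipper proteins, among them CEBPG, at composite sites called C/EBP-ATF response elements (CAREs).

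Several of these genes carried both factors at the same place. An ATF4 peak was assigned to 5 of the 10 genes (Hspa5, Sel1l, Herpud1, Pdia4 and Edem1), where 7.44% of all protein-coding genes had one. A CEBPG peak was assigned to 8 of the 10, against 43.7% of all genes. When a peak counted for its nearest gene alone, 7 of the 10 had one, against 32.2% of all genes. All 5 ATF4 peaks overlapped a CEBPG peak, as did 15.1% of all 2642 and 57.4% of those in the same score range (scores are described below). The 5 genes thus also held an overlapping pair, which 1.78% of all genes held. In each of the 5 the member was the protein-coding gene nearest to the pair. Longer windows meet more peaks, and the 10 spans ran from 3.19 kb (Manf) to 43.1 kb (Sel1l). Among the 12725 protein-coding genes with spans in that range, 4.96% had an ATF4 peak, 36.7% a CEBPG peak and 1.52% a pair. Per 100 kb of window the 10 genes held 0.91 ATF4 peaks and 2.55 CEBPG peaks, against 0.0981 and 0.985 over all genes. The members had been chosen with earlier results of these data known, and these shares are given as a description.

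**Figure D1:**
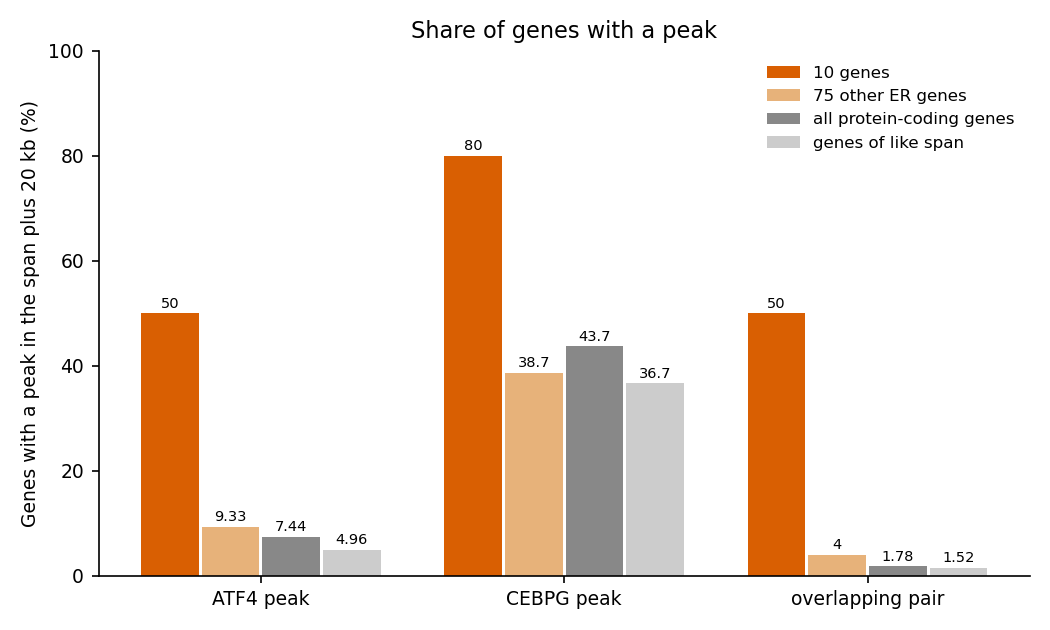
Bars give the percentage of genes with an ATF4 peak, a CEBPG peak or an overlapping pair in the gene span plus 20 kb, for the 10 genes, 75 other ER genes, all protein-coding genes and genes with spans in the range of the 10. The bars of the 10 genes reach 50% for ATF4 and for pairs and 80% for CEBPG, and the 75 other ER genes reach 9.33%, 4% and 38.7%.

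By role, the 3 ERAD genes all held a pair, as did the disulfide isomerase gene Pdia4. Of the 4 chaperone and cochaperone genes 1 did, Hspa5. These roles did not carry pairs in general. Among 75 other ER genes, pairs were held by 1 of 21 ERAD genes, 1 of 13 disulfide genes and 0 of 13 chaperone genes. The share over all protein-coding genes was 1.78%. The transcription factor gene Xbp1 and Manf, which encodes a small secreted ER protein, had CEBPG peaks alone. The chaperone genes Hsp90b1 and Hyou1 had no peak in either list. Each peak carries the authors' own score, which begins at 40 in both lists and is used here only to describe and rank peaks within a list. The 5 ATF4 scores lay close together, from 68.02 at Herpud1 to 94.8 at Edem1. The 5 partner CEBPG scores ran from 657.98 at Pdia4 to 3100 at Hspa5. The lists differ in score range, up to 1152.06 for ATF4 and 3205.83 for CEBPG, so these spreads are not compared.

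**Figure D2:**
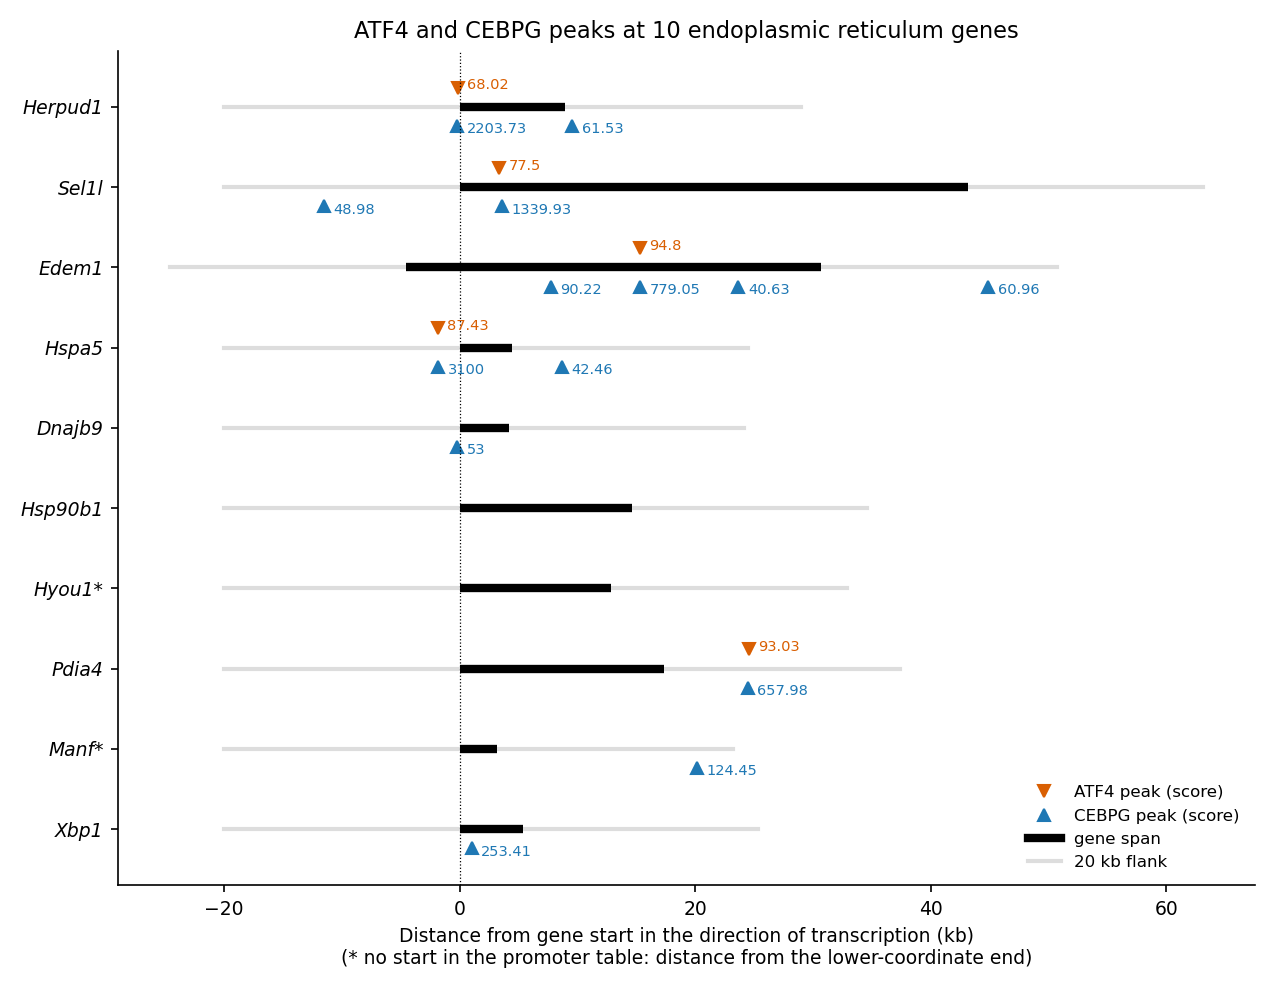
Each row is 1 gene, with its span in black and the 20 kb flanks in grey. The horizontal axis is the distance in kb from the gene start in the direction of transcription, except for Hyou1 and Manf (asterisks), which are not in the promoter table and are drawn by genome coordinate from their lower-coordinate end. Triangles mark ATF4 peaks (above) and CEBPG peaks (below) with their scores. The pairs lie at the start of Herpud1, 1.85 kb before the start of Hspa5, inside Sel1l and Edem1 and beyond the end of Pdia4.

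Among the ERAD genes, Herpud1 had its pair at the promoter. Herpud1 encodes a membrane protein of the ER that assembles with the HRD1 ubiquitin ligase. The ATF4 peak (chr8:94386177-94386404, score 68.02, rank 262 of 2642) was centred 138.5 bp before the gene start, and the CEBPG peak (chr8:94385904-94386584, score 2203.73, rank 84 of 25419) 185 bp before it. The CEBPG peak covered the start itself, and the whole ATF4 peak lay within it. A second, weak CEBPG peak (score 61.53) was centred 620 bp past the other end of the gene, with no ATF4 peak. Promoter sequences were taken from a RefSeq table of the same build (GRCm38.p6), which gives 250 bases before and 50 bases from each start and holds 8 of the 10 genes. Of its 32851 promoters, 48 (0.146%) overlapped an ATF4 peak, 410 (1.25%) a CEBPG peak and 33 both, and Herpud1 was among the 33.

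The promoters of Herpud1, Dnajb9 and Hspa5 are printed 5′ to 3′ along the gene, since the first lay under both factors, the second under CEBPG alone, and the third, at the gene of BiP itself, under neither. Capitals mark matches on either strand to the motifs searched, and adjoining or overlapping matches run together. The windows are chr8:94386179-94386478 (plus strand), chr12:44210019-44210318 (minus strand) and chr2:34771840-34772139 (plus strand).
Herpud1: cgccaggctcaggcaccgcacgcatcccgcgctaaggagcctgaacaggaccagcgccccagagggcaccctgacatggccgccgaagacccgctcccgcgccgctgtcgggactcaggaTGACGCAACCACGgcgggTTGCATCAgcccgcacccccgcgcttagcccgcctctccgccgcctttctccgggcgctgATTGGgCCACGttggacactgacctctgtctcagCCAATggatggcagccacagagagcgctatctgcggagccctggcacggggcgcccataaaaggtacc
Dnajb9: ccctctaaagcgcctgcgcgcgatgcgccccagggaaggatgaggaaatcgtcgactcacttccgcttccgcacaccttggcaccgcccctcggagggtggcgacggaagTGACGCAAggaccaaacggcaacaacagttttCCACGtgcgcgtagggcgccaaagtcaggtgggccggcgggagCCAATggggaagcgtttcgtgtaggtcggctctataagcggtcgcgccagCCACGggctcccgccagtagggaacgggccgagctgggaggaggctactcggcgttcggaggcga
Hspa5: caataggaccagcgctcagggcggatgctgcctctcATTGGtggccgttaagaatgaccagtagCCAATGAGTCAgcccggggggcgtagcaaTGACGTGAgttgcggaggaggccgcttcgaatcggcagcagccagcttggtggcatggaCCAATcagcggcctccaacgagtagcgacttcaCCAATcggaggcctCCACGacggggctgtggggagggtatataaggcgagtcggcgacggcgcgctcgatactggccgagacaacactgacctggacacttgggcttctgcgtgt

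In the Herpud1 promoter, TTGCATCA at positions -112 to -105 from the start is the core of the CARE, TGATGNAA, read on the opposite strand. It lay inside both peaks. This motif was in 3.97% of all promoters, in 20 of the 48 under an ATF4 peak (41.7%) and in 22.2% of the 410 under a CEBPG peak. Among the 8 promoters it was found in Herpud1 alone. TGACGCAA, which joins a CRE part to a C/EBP part, was at -130 to -123, also inside both peaks. It was added to the search after the sequences had been seen, and was in 0.49% of all promoters, 12.5% of those under ATF4 and 12% of those under CEBPG. Nearer the start, ATTGG and CCACG stood 1 base apart at -52 to -42. This is the ERSE-II, a form of the ER stress response element known from this gene, also added to the search afterwards, and 0.0365% of all promoters held it. The promoter thus holds the CARE core and the ERSE-II within the same ATF4 peak, which reaches from -252 to -25. A match describes the letters only and does not locate the bound base.

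**Figure D3:**
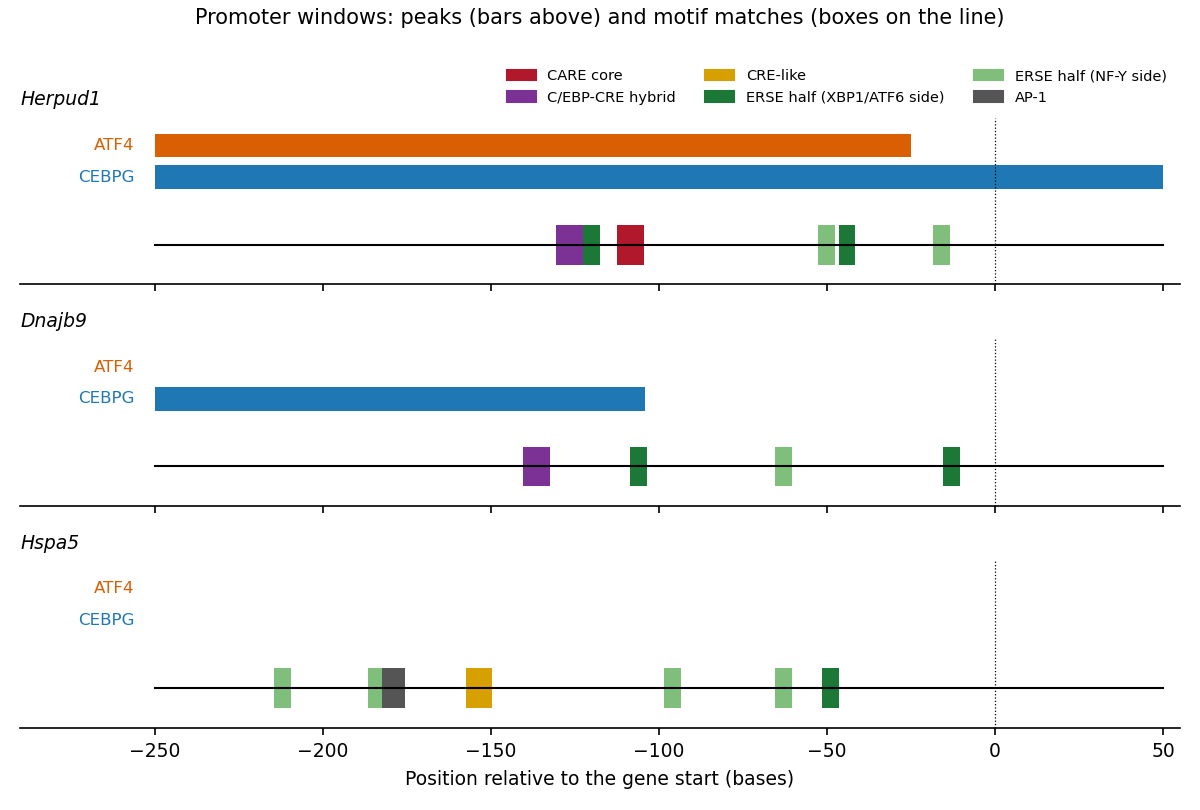
The horizontal axis is the position in bases from the gene start, for the promoter windows of Herpud1, Dnajb9 and Hspa5. Bars show the part of the window inside an ATF4 or CEBPG peak, and boxes on the line show motif matches. The Herpud1 window is wholly covered by its CEBPG peak, with 226 of its 300 bases in the ATF4 peak. Dnajb9 is covered in part by CEBPG, and no peak lies over the Hspa5 window.

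Sel1l encodes the adaptor that hands misfolded proteins to HRD1. Its ATF4 peak (chr12:91845688-91845898, score 77.5, rank 199) and CEBPG peak (chr12:91845200-91845926, score 1339.93, rank 193) lay inside the gene span, centred 3.36 kb and 3.59 kb after the start. The ATF4 peak was wholly inside the CEBPG peak but near its edge, on the side of the gene start. The centres were 230 bp apart, and 398 of all 404 overlapping pairs (98.5%) had centres that close or closer. A weak CEBPG peak (48.98) lay 11.5 kb before the start without ATF4. The gene table gives spans and no exons, so whether the pair is in an exon or an intron is not told here.

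Edem1 encodes a lectin-like protein that marks misfolded glycoproteins for removal. Its pair was centred 15.3 kb after the start given in the promoter table, inside the span (ATF4 chr6:108843795-108844118, score 94.8, rank 148, CEBPG chr6:108843583-108844302, score 779.05, rank 405). The centres lay 14 bp apart. Edem1 held the most CEBPG peaks of the 10 genes, 4 in all. The other 3 had scores of 90.22 and 40.63 inside the span and 60.96 at 14.2 kb beyond it, nearer to Gm6749, and no ATF4 peak lay on them. Within this gene ATF4 was thus found at the strongest of the CEBPG sites.

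Among the chaperones, Hspa5 encodes BiP, the ER-resident Hsp70 that also holds the stress sensors inactive. Its pair lay upstream and apart from the promoter window. The ATF4 peak (chr2:34770077-34770411, score 87.43, rank 161) was centred 1846 bp before the start and the CEBPG peak (chr2:34769915-34770608) 1828.5 bp before it. The CEBPG score of 3100 is shared by 38 peaks of the list, so the rank of 5 is a tie. The 2 centres were 17.5 bp apart, closer than in most pairs (24% of all pairs were that close or closer). The CEBPG peak ended at position -1482, which leaves the printed promoter outside both peaks. That promoter held an ERSE (CCAAT and CCACG spaced by 9 bases) at -65 to -47, a form found in 0.119% of all promoters, and a CRE-like TGACGTGA at -157 to -150, found in 0.441%. The ERSE is the element through which ATF6 and the CCAAT-binding factor NF-Y act on this gene. A second CEBPG peak assigned to Hspa5 had a score of 42.46 and lay inside the neighbouring gene Rabepk.

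The windows of Rabepk and Gapvd1 also reach the Hspa5 pair, but Hspa5 was the protein-coding gene nearest to it. Just beyond the 20 kb limit, a weaker overlapping pair lay 25.5 kb from Hspa5 (CEBPG 382.64, ATF4 43.92), nearest to Rabepk. By the scores of the strongest pair in the window, compared on a log10 scale over the 390 genes with a pair, the genes most like Hspa5 were Gapvd1 and Rabepk, through that same pair, and then Cdyl (ATF4 95.03, CEBPG 3100, distance 0.036).

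Dnajb9 encodes ERdj4, a cochaperone that works with BiP and binds misfolded proteins. It had a CEBPG peak at the promoter (chr12:44210172-44210379, score 53, rank 7883) and no ATF4 peak. The peak was centred 207.5 bp before the start and covered 147 of the 300 bases printed. TGACGCAA stood inside it at -140 to -133. Dnajb9 and Herpud1 were the 2 of the 8 promoters with this motif, and both lay under CEBPG. The motif was added after these sequences had been seen, so this count is a description only. It was in 0.49% of all promoters and in 12% of those under CEBPG. The nearest ATF4 peak outside the Dnajb9 window was 716 kb away.

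Hsp90b1, encoding GRP94, the ER form of Hsp90, and Hyou1, encoding GRP170, a large Hsp70-like exchange factor for BiP, had no peak within 20 kb. The nearest CEBPG peak to Hsp90b1 was 78 kb away (1146.86) and the nearest ATF4 peak 747 kb away (42.78). For Hyou1 these distances were 35.1 kb (107.23) and 2210 kb (40.45). The Hsp90b1 promoter held the ERSE at -212 to -194 and at -107 to -89. Hspa5 and Hsp90b1, the 2 promoters of the 8 with an ERSE, were both outside the peaks of either list. This was the usual state, since 0.146% of all promoters overlapped an ATF4 peak and 1.25% a CEBPG peak. Listed scores begin at 40 and the depth of these libraries is unknown, so a gene without a listed peak may still hold weaker sites.

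Pdia4 encodes ERp72, a protein disulfide isomerase. Its pair lay on the far side of the gene, 7.16 kb beyond the end of the span and 24.5 kb from the start (ATF4 chr6:47788770-47789199, score 93.03, rank 151, CEBPG chr6:47788847-47789237, score 657.98, rank 497). This was the 1 pair of the 5 in which the ATF4 peak was not contained in the CEBPG peak: 82.1% of the ATF4 peak and 90.3% of the CEBPG peak overlapped. It was also the 1 pair in which the CEBPG peak (391 bp) was narrower than the ATF4 peak (430 bp). The next CEBPG peak, just outside the window at 23.9 kb, had a score of 76.66.

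Xbp1 encodes the transcription factor that IRE1 activates by splicing its messenger RNA. A single CEBPG peak (chr11:5521494-5521819, score 253.41, rank 1366) was centred 1015.5 bp after its start, inside the span, with no ATF4 peak. Of the 524 CEBPG peaks with scores from 200 to 300, 27 (5.15%, 95% Wilson interval 3.57 to 7.39%) overlapped an ATF4 peak. Xbp1 was thus like most peaks of its score in lacking ATF4. Another CEBPG peak (134.85) lay 25.5 kb away, outside the window and nearest to Ccdc117. At Manf the assigned CEBPG peak (chr9:106908743-106909100, score 124.45) lay 17 kb from the gene and inside Dock3, and no other peak of either list was assigned to Manf.

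The CEBPG peaks of these genes fell into 2 ranges that did not overlap. The 5 that lay on an ATF4 peak scored 657.98 or more (median 1339.93, ranks 5 to 497), and the 9 others scored 253.41 or less (median 60.96). In the list as a whole the share on an ATF4 peak was also higher at higher scores: 0.196% of CEBPG peaks under 100 (95% Wilson interval 0.146 to 0.263%), 1.13% from 100 to 150 (0.613 to 2.06%) and 48.7% (44.3 to 53.1%, n = 493) in the range of the 5 paired peaks. The intervals cover counting error only. The paired CEBPG peaks were 391 to 727 bp wide (median 694), against a median of 131 bp for the list and 584 bp for all CEBPG peaks shared with ATF4.

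**Figure D4:**
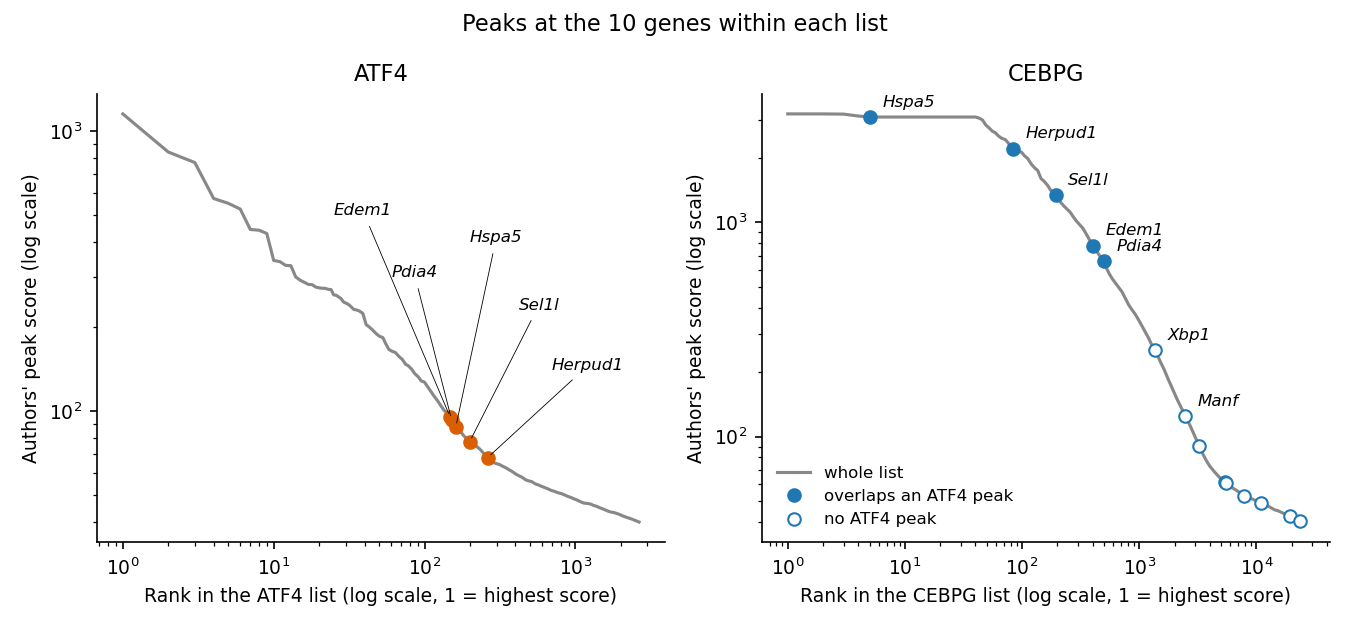
Score against rank on log axes for the whole ATF4 list (left) and CEBPG list (right), with the peaks of the 10 genes as points. The 5 ATF4 peaks lie together at ranks 148 to 262, and the CEBPG peaks that overlap them (filled) all rank above the 9 that do not (open).

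The ATF4 peaks of these genes all scored above 50, where 2.86% of all genes had such a peak. None of the 10 genes had one of 100 or more, a score that 0.635% of all genes reached, so a count of 0 among 10 genes is near that background. The 5 peaks ranked 148 to 262, within the top 5.6 to 9.92% of the ATF4 list, and their median of 87.43 compares with 45.88 for the list and 64.68 for the 400 shared ATF4 peaks. Of the 115 ATF4 peaks with scores in the same range, 66 overlapped a CEBPG peak (57.4%, 95% Wilson interval 48.3 to 66%). For CEBPG, 7 of the 10 genes had a peak of 100 or more, all but Dnajb9, Hsp90b1 and Hyou1, against 10.9% of all genes. Manf was counted here through the peak that lay 17 kb away, inside Dock3. The order of the pairs differed between the factors. By CEBPG score it was Hspa5, Herpud1, Sel1l, Edem1 and Pdia4, and by ATF4 score Edem1, Pdia4, Hspa5, Sel1l and Herpud1. Edem1 and Pdia4, the pairs farthest from a gene start, were last for CEBPG and first for ATF4. Whether such close ATF4 scores would keep this order in a second library was not tested.

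**Figure D5:**
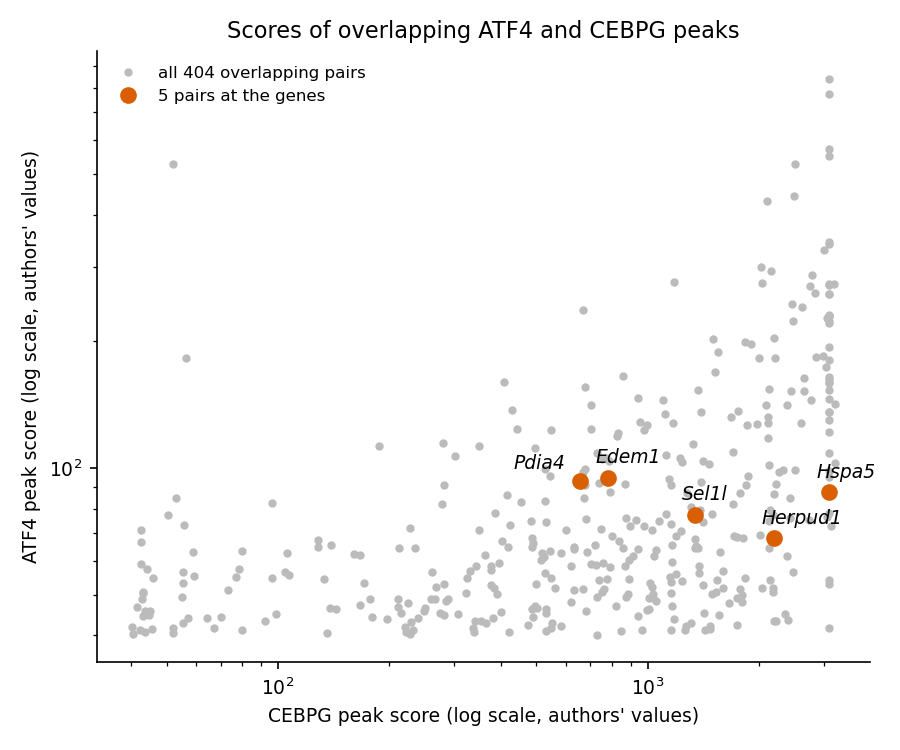
Each point is 1 of the 404 overlapping ATF4 and CEBPG pairs of the genome, with CEBPG score on the horizontal and ATF4 score on the vertical axis, both logarithmic. The 5 pairs of the ER genes lie between 68.02 and 94.8 on the ATF4 axis and between 657.98 and 3100 on the CEBPG axis.

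The remaining motifs searched were TTNNGCAA (a C/EBP site, in 10.8% of all promoters), TGACGTCA (the CRE, 1.79%), TGACGTGG (core of the UPRE bound by XBP1, 0.676%), TGANTCA (the AP-1 site, 7.81%) and the component sites of the ERSE, CCACG (32.8%) and CCAAT (37.4%). TTNNGCAA was found in Xbp1, at -178 to -171 and outside its CEBPG peak. TGANTCA was found in Hspa5, where it overlaps a CCAAT by 1 base, and in Sel1l, at -205 to -199, outside any peak. TGACGTCA and TGACGTGG were in none of the 8 promoters. Of the 8, 7 held CCACG and 7 held CCAAT, Xbp1 being without either.

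A wider list of 75 other ER genes, of sensors, chaperones, disulfide enzymes, ERAD components, glycan-processing enzymes and translocation subunits, had smaller shares. An ATF4 peak was assigned to 7 of the 75 (9.33%), a CEBPG peak to 29 (38.7%) and a pair to 3 (4%), against 7.44%, 43.7% and 1.78% of all genes. The 3 pairs were each nearer to another gene. At Ero1a, the oxidase that supplies disulfide bonds, the pair (ATF4 159.56, CEBPG 3100) lay 7.06 kb from the gene and nearest to Psmc6. At Derl1, a channel component of ERAD, it lay 14.5 kb away and nearest to Tbc1d31 (136.08 and 3100), and at Spcs1, of the signal peptidase, 16.2 kb away and nearest to Gnl3 (48.82 and 42.9).

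The wider list had 4 ATF4 peaks that were not in such a pair. They scored 55.15 near Derl3 (rank 527 of 2642), 46.25 near Sec63 (rank 1281) and 42.22 near Pdia5 (rank 2023). The last, 40.67 (rank 2459), lay inside Ern1, the gene of the sensor IRE1. Ern1 also had a separate CEBPG peak of 626.66 inside its span, 48.8 kb after the start. The next highest CEBPG scores of the wider list were 346.67 at Herpud2, a paralogue of Herpud1, 149.58 at Atf6, the gene of another sensor, and 126.32 at Dnajb11, a BiP cochaperone gene. None of the 13 other chaperone and cochaperone genes had an ATF4 peak, and 8 (61.5%) had a CEBPG peak. Of these 8, Dnajb11 alone had a CEBPG peak of 100 or more, a score that 10.9% of all genes reached. Of the 21 other ERAD genes, 2 (9.52%) had an ATF4 peak and 7 (33.3%) a CEBPG peak. Over all protein-coding genes the shares were 7.44% and 43.7%, so the ATF4 counts of both classes are near the background.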

How the data were processed

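Peak lists of ATF4 and CEBPG, from 1 library each, were analysed. Per the submitters' processing notes, the authors used Trimmomatic, BWA, MACS 1.4.2 and HOMER with build mm10; the settings and the background used for peak calling are not given in the sources used here. Single-end reads were 36 bp long, per the labels' protocols. The deposited files hold peak positions and the authors' score, the number at the end of each peak name; its scale is not stated, and depth is unknown. Positions are printed 1-based.

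Gene spans came from the RefSeq table of GRCm38.p6, the same build as mm10, and starts and promoters from the matching promoter table. Gene start was taken as the base after the 250 before it. Peaks were assigned by an overlap of at least 1 bp with the span plus 20 kb, and pairs by an overlap of at least 1 bp. Ranks are by score within a list. The 9 planned motifs and 2 added after the sequences were seen were searched on both strands. All 75 genes of the wider list matched, 4 of them through a synonym or newer name. Named were all 10 members, wider-list genes with an ATF4 peak or among the 6 highest CEBPG scores, genes nearer to a peak than the member, and the 3 genes most like Hspa5. The Hspa5 promoter was printed as an addition to the plan, which covered promoters under a peak. Members and lists were chosen with earlier results of these data known. The counting was checked on planted peaks. Python 3.11.15, pandas 2.3.3 and scipy 1.17.1 were used.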

Additional observations from a re-analysis of the deposited data

How the results depend on the processing

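Of 41 alternative counts, 26 stayed within 1.5 times the reported one. With the gene span alone, 2 members had an ATF4 peak, 4 a CEBPG peak and 2 a pair, against 3.94%, 23.4% and 0.804% of all genes. At scores of 100 or more, 0 members had an ATF4 peak and 0 a pair, against 0.635% and 0.562% of all genes. With at least 50% of both peaks overlapping, 1 member kept a pair, Pdia4 (0.886% of all genes), since the other ATF4 peaks are contained in wider CEBPG peaks. In the wider list of 75, genes with an ATF4 peak numbered 1 within 5 kb, 3 at scores of 50 or more and 2 at 100 or more. When a peak counted for its nearest gene alone they numbered 4. In that order the shares of all genes were 4.94%, 2.86%, 0.635% and 5.62%. Wider-list genes with a CEBPG peak numbered 46 within 50 kb, 13 at scores of 50 or more and 7 at 100 or more. Of all genes, 62.5%, 24.9% and 10.9% had one in these settings. Wider-list genes with a pair numbered 0 within 5 kb and 0 by nearest gene, against 1.13% and 1.21% of all genes. The member counts with 5, 10 and 50 kb flanks, with a score minimum of 50, by nearest gene and without peaks over 1 kb wide stayed within 1.5 times. Over all genes the shares did move with the flank. From 5 to 50 kb they rose from 4.94% to 12% for ATF4, 29.9% to 62.5% for CEBPG and 1.13% to 2.95% for pairs. No paired analysis was possible because each antibody had 1 library. Peak lists without read counts give no limit for a site that is not listed.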
